A study of Homo sapiens with 14 samples.

Results

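The libraries labelled TET2KO #3, called knockout 3 here, were compared with those labelled WT, 4 of the 14 libraries of the series. Members were chosen by their titles alone: knockout 3 replicates 1 and 2 and WT replicates 1 and 2, with all genes of their count tables. Every library was polyadenylated RNA of SK-N-BE2, an established human neuroblastoma line with an amplified MYCN gene, grown in RPMI medium with serum. The WT cells carried the label wild type and the knockout 3 cells the label TET2 knockout, both with no treatment and both in the second labelled batch, which also held knockouts 1 and 2 with 2 libraries each. How the knockouts were made, and whether number 3 is a clone or a pool, is not given in the sources used here. Nothing in the labels says that replicates came from separate cultures, so p-values measure only the spread between these libraries.

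TET2 is a dioxygenase that uses 2-oxoglutarate and iron to oxidise 5-methylcytosine in DNA to 5-hydroxymethylcytosine, a step towards removal of the methyl mark. TET1 and TET3 catalyse the same reaction, and DNMT enzymes write the mark. Neuroblastoma cells are known in an adrenergic state, driven by factors such as PHOX2A, HAND2 and GATA3, and a mesenchymal state that expresses matrix proteins, integrins and YAP-dependent genes. The comparison addressed how the transcriptome of the cells labelled TET2 knockout 3 differed from that of WT.

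Total counts were 55013610 and 56379494 in WT and 59263320 and 52095024 in knockout 3, and the 2 libraries of knockout 3 were the most and the least deeply counted of the 8 in the batch. Most counts stood for a single read of a pair, so a fragment usually counts as 2. Levels are counts per 1000000 (CPM) of the library total scaled by TMM. They are given for replicate 1 and then replicate 2. Changes are log2 fold changes of knockout 3 against WT with their standard error (SE). A gene was said to rise or fall when the adjusted p of edgeR's quasi-likelihood test was under 0.05. The adrenergic label was checked on its markers: PHOX2A was at 393 and 387 CPM in WT and 422 and 426 CPM in knockout 3, and HAND2 at 584 and 601 CPM in WT and 626 and 654 CPM in knockout 3. TH, the first enzyme of catecholamine synthesis, was at 508 and 532 CPM in WT and 544 and 502 CPM in knockout 3. MYCN, the amplified oncogene, was at 4600 and 4678 CPM in WT and 4700 and 4715 CPM in knockout 3 (log2 fold change 0.02, SE 0.03) and was not called.

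The targeted gene was not lower in the libraries labelled TET2 knockout 3. TET2 (chromosome 4, 105145875 to 105279816, plus strand) was at 70.8 and 64.8 CPM in WT and 68.2 and 75.4 CPM in knockout 3. The higher WT library lay between the knockout 3 libraries, and the log2 fold change was 0.08 (SE 0.05, adjusted p = 0.301 in edgeR's quasi-likelihood test). Counts were summed over all exons and do not show where or how the gene was altered. Its paralogues were lower. TET1 was at 43.8 and 41.1 CPM in WT and 34 and 35.4 CPM in knockout 3 and fell by 0.29 on the log2 scale (SE 0.06), and the groups did not overlap. TET3 was at 138 and 129.6 CPM in WT and 120.1 and 119 CPM in knockout 3 and fell by 0.16 (SE 0.04), a call that was lost without WT replicate 1 (log2 fold change -0.11).

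Of 14061 genes tested, 2653 (18.9%) passed the threshold: 1252 (8.9%) were higher and 1401 (9.96%) lower in knockout 3. The 2 groups did not overlap in 7709 genes (54.8%). Most changes were small. The median absolute log2 fold change was 0.21 among genes that rose and 0.303 among genes that fell, and 1145 of the risers and 926 of the fallers changed by less than 1.5-fold. At least 2-fold changes numbered 346 (2.46%) and were uneven: 303 genes (2.15%) were lower and 43 (0.306%) higher, and beyond 4-fold 125 were lower and 10 higher. The median log2 fold change over all genes tested was -0.0005, and 0.002 with the size factors of DESeq2. Both scalings bring the bulk of genes close to 0, so these medians cannot show whether all genes shifted together. Leaving out WT replicate 1 reduced the calls to 1616 (764 higher, 852 lower), and leaving out knockout 3 replicate 1 to 1566 (766 higher, 800 lower). Without those libraries the 2-fold calls were 285 (29 higher, 256 lower) and 275 (22 higher, 253 lower), and DESeq2 gave 25 higher and 256 lower at 2-fold.

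The 2-fold changes lay mainly in genes of low level. Of the 303 genes at least 2-fold lower, 130 had a mean under 1 CPM over the 4 libraries, 134 a mean of 1 to 10 CPM, 36 of 10 to 100 CPM and 3 above 100 CPM. Of the 43 at least 2-fold higher, 30 were under 1 CPM and 13 between 1 and 10 CPM. Small changes passed more often in abundant genes, where 18.6% of the 2471 genes above 100 CPM were called higher and 14.2% lower. Of the 6890 genes of 10 to 100 CPM, 9.56% were higher and 8.65% lower. Low genes were tested where at least as many libraries as a group holds passed the filter on counts, from any group. A gene kept through the WT libraries alone was chosen for a higher level there, so its difference was partly set by the filter.

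**Figure D1:**
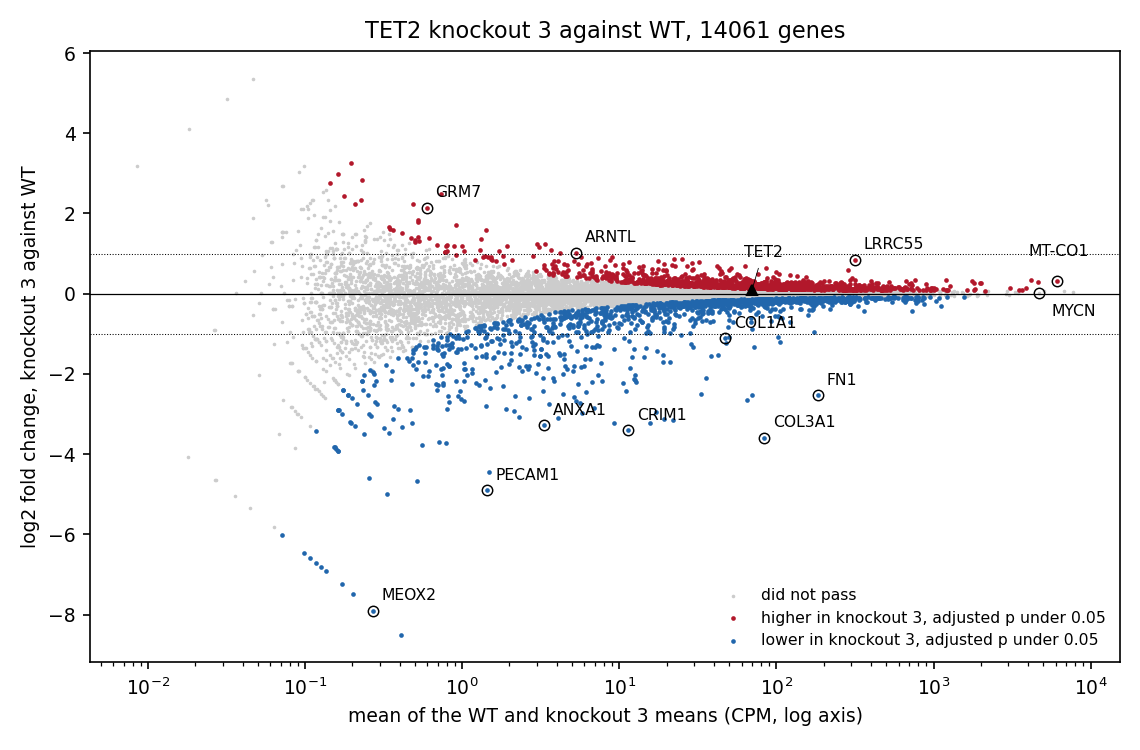
Log2 fold change of knockout 3 against WT (vertical axis) against the mean of the 2 group means in CPM (horizontal log axis) for 14061 genes. Points are genes, red for the 1252 higher, blue for the 1401 lower and grey for those that did not pass; dotted lines mark 2-fold, and the lower tail is longer than the upper, with COL3A1 at -3.59 and ARNTL at 1.02, while TET2 (triangle) sits at 0.08.

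The 12 largest falls among genes of at least 5 CPM in the higher group included COL3A1, CRIM1 and ANXA1. COL3A1 (chromosome 2, 188974373 to 189012746, plus strand), the chain of fibrillar type III collagen, was at 158 and 152 CPM in WT and 12.4 and 13.3 CPM in knockout 3, 12.1-fold lower (log2 fold change -3.59, SE 0.06). CRIM1 (chromosome 2, 36355778 to 36551135, plus strand), a transmembrane protein that binds BMP ligands, was at 21.6 and 20.1 CPM in WT and 1.98 and 1.95 CPM in knockout 3 (log2 fold change -3.41, SE 0.14). ANXA1 (chromosome 9, 73151865 to 73170393, plus strand), a calcium-dependent phospholipid-binding protein with anti-inflammatory activity, was at 6 and 6.06 CPM in WT and 0.342 and 0.936 CPM in knockout 3 (log2 fold change -3.28, SE 0.25). In all 3 the WT libraries lay within a narrow range several times above both knockout 3 libraries.

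TM4SF1 (chromosome 3, 149369022 to 149377692, minus strand), a tetraspanin-like protein of endothelial and tumour cell surfaces, was at 15.6 and 17.9 CPM in WT and 2.15 and 1.4 CPM in knockout 3. POSTN (chromosome 13, 37562583 to 37598844, minus strand), the matricellular protein periostin, was at 39.8 and 38.9 CPM in WT and 4.41 and 4.39 CPM in knockout 3. CCN2 (chromosome 6, 131948176 to 131951372, minus strand), a matricellular protein and standard readout of YAP activity, was at 6.89 and 7.76 CPM in WT and 0.786 and 0.936 CPM in knockout 3. Both knockout 3 libraries were below both WT libraries in each, and the log2 fold changes were -3.22 (SE 0.15), -3.16 (SE 0.10) and -3.09 (SE 0.22). The sequence just upstream of these genes, from RefSeq (GRCh38.p14) and cut where either annotation begins the transcript, is printed 5′ to 3′ on the strand of the gene, to show the DNA before the starts of 3 of the genes that fell most. Capitals mark matches to GGAATG, the core of the TEAD site, on either strand (CATTCC on the other), and to TGANTCA, the AP-1 site.
CCN2 upstream of the gene start (chr6:131951373-131951622, minus strand): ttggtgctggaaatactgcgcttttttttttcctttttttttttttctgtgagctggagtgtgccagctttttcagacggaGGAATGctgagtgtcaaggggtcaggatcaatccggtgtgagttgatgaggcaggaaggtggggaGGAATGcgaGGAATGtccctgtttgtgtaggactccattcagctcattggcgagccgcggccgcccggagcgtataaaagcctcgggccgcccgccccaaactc
POSTN upstream of the gene start (chr13:37598845-37599018, minus strand): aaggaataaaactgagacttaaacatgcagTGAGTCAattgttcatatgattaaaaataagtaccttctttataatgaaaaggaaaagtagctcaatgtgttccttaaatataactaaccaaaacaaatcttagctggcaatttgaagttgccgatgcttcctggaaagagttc
TM4SF1 upstream of the gene start (chr3:149377693-149377899, minus strand): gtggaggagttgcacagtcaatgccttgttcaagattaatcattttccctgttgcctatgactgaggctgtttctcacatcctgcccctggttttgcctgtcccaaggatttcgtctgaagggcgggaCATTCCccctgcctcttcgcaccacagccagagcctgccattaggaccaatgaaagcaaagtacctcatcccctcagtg

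The CCN2 stretch of 250 bases held 3 GGAATG matches and 13 CpG dinucleotides, the TM4SF1 stretch of 207 bases held 1 match and 3 CpG, and the POSTN stretch of 174 bases held 1 TGANTCA match and 1 CpG. The matches did not overlap one another. The 3 genes followed no set rule and the other largest falls were not printed, so such matches cannot be taken as typical of the falls. The printed stretches are also shorter than the windows of 300 bases whose shares follow. Over the 35116 windows of 300 bases in the RefSeq promoter table, 14% held GGAATG and 7.7% held TGANTCA, counted on both strands, and the matches are described here as letters in the DNA, not as sites in use.

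The other 6 genes of the 12 largest falls were CCDC80, PTX3, ANKRD1, MEST, CCL2 and TFPI, with log2 fold changes from -3.23 to -2.74. CCDC80, a secreted matrix protein, was at 35.3 and 33.6 CPM in WT and 4 and 3.9 CPM in knockout 3. ANKRD1, a nuclear ankyrin-repeat protein and YAP target, was at 9.84 and 10.6 CPM in WT and 1.06 and 1.56 CPM in knockout 3. CCL2, a chemokine that attracts monocytes, was at 12.8 and 11.6 CPM in WT and 1.64 and 1.75 CPM in knockout 3. They were 8.7-fold, 7.91-fold and 7.19-fold lower, with no overlap between the groups. TFPI, an inhibitor of tissue factor, was at 6.58 and 5.85 CPM in WT and 1.13 and 0.702 CPM in knockout 3. PTX3, a soluble pattern-recognition protein, was at 28.8 and 28.2 CPM in WT and 2.82 and 3.28 CPM in knockout 3. MEST, an imprinted gene expressed from the paternal allele, was at 30.03 and 31.1 CPM in WT and 4.08 and 3.8 CPM in knockout 3. PTX3 shares exonic bases on the opposite strand with VEPH1 and MEST with COPG2, and counting did not use the strand, so their reads cannot be told apart from those of the partner. The same holds for THBS1, ACTA2, TAGLN, SLC18A2, FOXM1, NDUFB9, HSP90B1, KRT18, PSMB8, PARP9 and DTX3L below, and LOXL2, PDGFRA, ITGA1, ERBB3, IGF2, MXD3, POPDC2 and IFITM2 share exonic bases with a gene on their own strand.

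The 12 largest rises, by the same rule, reached about 2-fold and no more. ARNTL (chromosome 11, 13276652 to 13387266, plus strand), the clock transcription factor BMAL1, was at 3.29 and 3.78 CPM in WT and 7.6 and 6.69 CPM in knockout 3 (log2 fold change 1.02, SE 0.15). RORB (chromosome 9, 74497335 to 74693177, plus strand), a nuclear receptor of the ROR family, was at 16 and 15.7 CPM in WT and 29.4 and 28.3 CPM in knockout 3 (log2 fold change 0.86, SE 0.08). LRRC55 (chromosome 11, 57181747 to 57191717, plus strand), an auxiliary subunit of BK potassium channels, was at 228 and 224 CPM in WT and 414 and 401 CPM in knockout 3 (log2 fold change 0.85, SE 0.03). CXCR4 (chromosome 2, 136114349 to 136118149, minus strand), the receptor of the chemokine CXCL12, was at 18.8 and 16.7 CPM in WT and 32.2 and 32.2 CPM in knockout 3 (log2 fold change 0.86, SE 0.08). In these 4 genes every knockout 3 library was above every WT library. FEZ1, an axonal transport adaptor, was at 3.13 and 2.44 CPM in WT and 5.96 and 5.15 CPM in knockout 3. NMU, the precursor of the peptide neuromedin U, was at 4.87 and 5.48 CPM in WT and 9.93 and 9.11 CPM in knockout 3. POPDC2, OPRM1, RD3, XK, CCNA1 and SLC47A1 completed the 12, with log2 fold changes from 0.81 to 0.91, and OPRM1 overlaps exons of IPCEF1 and AL357075.4 on the opposite strand. CXCL12, the ligand of CXCR4, moved the other way, at 18.7 and 18 CPM in WT and 4.85 and 5.24 CPM in knockout 3 (log2 fold change -1.87, SE 0.11).

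**Figure D2:**
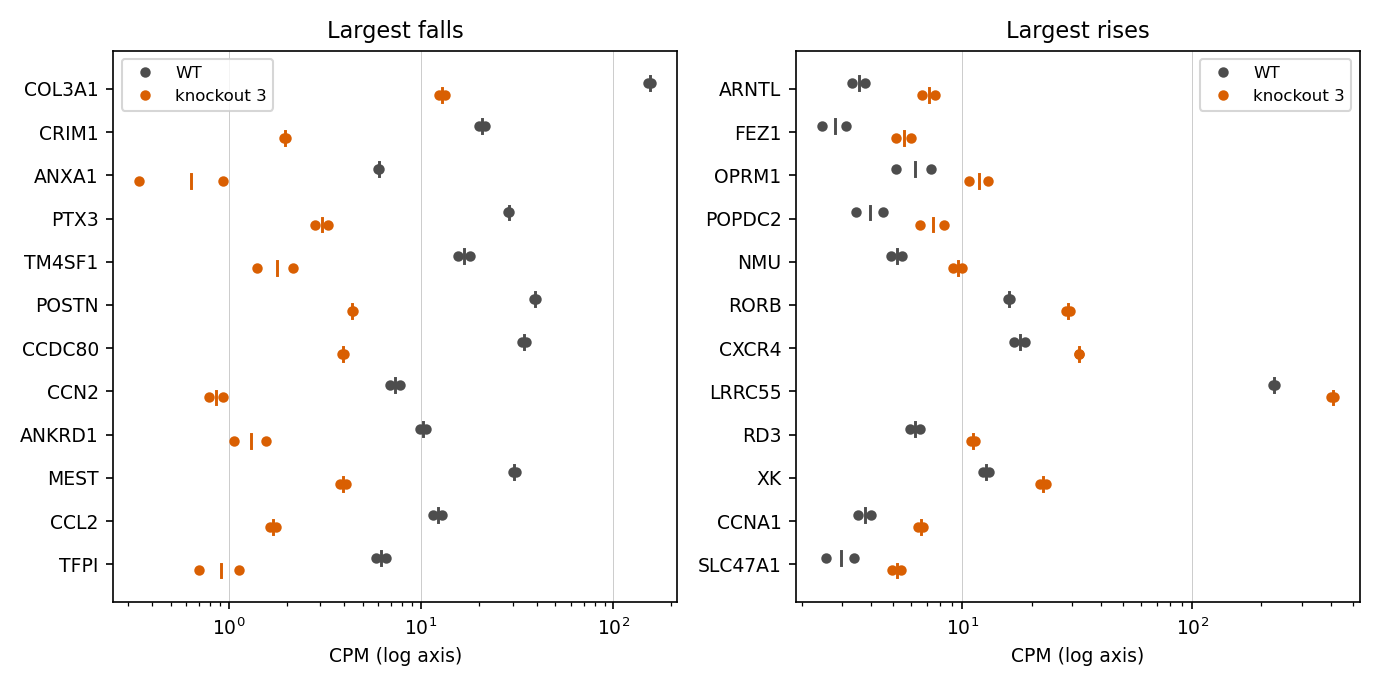
Levels in CPM (horizontal log axis) of the 12 largest falls (left) and 12 largest rises (right) in the 2 WT (grey) and 2 knockout 3 (orange) libraries, with a bar at each group mean. Groups do not overlap in any of these genes, a condition of their choice, and the gaps on the left reach 12.1-fold for COL3A1 against 2.03-fold for ARNTL on the right.

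Many extracellular matrix genes fell, with exceptions. The lists here and below are described by the members called higher or lower of those tested and by their median log2 fold change. Their counts are to be read beside the shares called over all genes. Of 31 collagen chains tested (44 listed), 15 fell and 1 rose, with a median log2 fold change of -0.54, against 9.96% lower and 8.9% higher over all genes. Fibrillar chains were among them: COL1A1 was at 64.9 and 64.7 CPM in WT and 31.3 and 28.8 CPM in knockout 3 (log2 fold change -1.11, SE 0.06). COL5A1 was at 59 and 54.9 CPM in WT and 18.8 and 20.1 CPM in knockout 3 (log2 fold change -1.55, SE 0.07). Basement membrane chains fell too, COL4A1 from 149 and 143 CPM to 65.4 and 61.4 CPM (log2 fold change -1.2, SE 0.05), and so did beaded-filament chains such as COL6A1 (log2 fold change -0.42, SE 0.06). The chain that rose was COL22A1, at 66.8 and 69.1 CPM in WT and 76.7 and 77.8 CPM in knockout 3 (log2 fold change 0.18, SE 0.05), a call lost without WT replicate 1 (log2 fold change 0.16). COL1A2, the partner of COL1A1 in type I collagen, had 0 to 2 counts in each of the 4 libraries and was not tested. In bulk RNA, fewer cells of a type and less RNA per cell cannot be told apart, here and in every list below.

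Matrix glycoproteins and proteoglycans followed a mixed course: 24 of 49 fell, 5 rose, and the median was -0.47. FN1, fibronectin, was at 325 and 306 CPM in WT and 54.3 and 54.7 CPM in knockout 3 (log2 fold change -2.53, SE 0.04). THBS1, thrombospondin 1, was at 121 and 116 CPM in WT and 21.5 and 19.5 CPM in knockout 3 (log2 fold change -2.53, SE 0.06). SPARC, a collagen-binding protein, was at 227 and 234 CPM in WT and 124 and 113 CPM in knockout 3 (log2 fold change -0.96, SE 0.04). These were abundant genes whose groups were far apart. DCN, the small leucine-rich proteoglycan decorin, rose from 21.5 and 21.5 CPM to 36.3 and 37.4 CPM (log2 fold change 0.77, SE 0.07), as did LUM, its relative lumican (log2 fold change 0.39, SE 0.07), and ELN, elastin (log2 fold change 0.68, SE 0.13). EMILIN1 and FBLN1 made up the 5, with log2 fold changes of 0.16 and 0.12. Both of those calls were lost without knockout 3 replicate 1 (0.12 and 0.08) and that of FBLN1 also without WT replicate 2 (0.10).

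Enzymes that modify the matrix were lower in 11 of 30 and higher in 2 (1 without knockout 3 replicate 1), with a median of -0.27. LOXL2, a lysyl oxidase that cross-links collagen, was at 17.5 and 19.7 CPM in WT and 2.92 and 4.06 CPM in knockout 3 (log2 fold change -2.43, SE 0.13). MMP14, a membrane-bound protease, was at 18.7 and 20.7 CPM in WT and 10.1 and 9.94 CPM in knockout 3 (log2 fold change -0.97, SE 0.10). ADAMTS2, which trims fibrillar procollagens, was at 27.6 and 28.3 CPM in WT and 13.9 and 14.5 CPM in knockout 3 (log2 fold change -0.98, SE 0.08). Outside the list, MMP1, interstitial collagenase, was at 112 and 114 CPM in WT and 17.9 and 18.2 CPM in knockout 3 (log2 fold change -2.65, SE 0.06). Integrin subunits, the receptors for these proteins, were lower in 12 of 21 with 1 higher and a median of -0.33. ITGA5, the fibronectin-binding subunit, was at 11.7 and 13.8 CPM in WT and 2.15 and 3.55 CPM in knockout 3 (log2 fold change -2.19, SE 0.15). ITGA3, the laminin-binding subunit, was at 29.9 and 28.3 CPM in WT and 9.31 and 8.46 CPM in knockout 3 (log2 fold change -1.71, SE 0.09). ITGA11, a collagen-binding subunit, was at 65 and 61.6 CPM in WT and 20.2 and 24.2 CPM in knockout 3 (log2 fold change -1.52, SE 0.06). ITGA1 rose, from 138 and 124 CPM to 162 and 168 CPM (log2 fold change 0.34, SE 0.04).

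Regulators and markers of the mesenchymal state were lower in 10 of 20 tested and higher in 2, with a median of -0.54. The AP-1 subunit FOSL1 fell by 1.47 on the log2 scale (SE 0.18), and FOSL2 was at 127 and 122 CPM in WT and 85 and 81.9 CPM in knockout 3 (log2 fold change -0.58, SE 0.04). The Hippo-pathway effectors fell as well. YAP1 was at 1.31 and 0.749 CPM in WT and 0.0342 and 0.117 CPM in knockout 3 (log2 fold change -3.78, SE 0.63). WWTR1, which encodes TAZ, was at 6.64 and 6.53 CPM in WT and 2.12 and 2.57 CPM in knockout 3 (log2 fold change -1.5, SE 0.18). CD44, the hyaluronan receptor, was at 32.2 and 34.6 CPM in WT and 16.3 and 16.5 CPM in knockout 3 (log2 fold change -1.03, SE 0.08). MEOX2, a homeobox factor, had 60 counts over the WT libraries and 0 over those of knockout 3, at least 9.89-fold lower with a floor of 6 counts (3 fragments) over the group. VIM, the intermediate filament vimentin, was at 838 and 841 CPM in WT and 806 and 791 CPM in knockout 3 (log2 fold change -0.07, adjusted p = 0.0714 in edgeR's quasi-likelihood test), and DESeq2 called it lower with an adjusted p of 0.0473. TWIST1 rose (log2 fold change 0.3, SE 0.05), and so did PRRX2, from 0.509 and 0.963 CPM to 1.91 and 1.87 CPM, a call lost without WT replicate 1 (log2 fold change 0.975). The factor PRRX1 had 8 and 6 counts in WT and 0 in both knockout 3 libraries and did not pass.

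Genes described as targets or partners of YAP and TEAD were lower in 14 of 24 and higher in 1, with a median of -0.56. Beside CCN2, CRIM1 and ANKRD1, CCN1 was at 29.9 and 34.6 CPM in WT and 9.77 and 9.94 CPM in knockout 3 (log2 fold change -1.71, SE 0.09). AMOTL2 was at 4.06 and 5.67 CPM in WT and 2.08 and 2.13 CPM in knockout 3 (log2 fold change -1.21, SE 0.19). FSTL1, a secreted glycoprotein, was at 69.3 and 65.6 CPM in WT and 28.3 and 29.1 CPM in knockout 3 (log2 fold change -1.23, SE 0.06). The DNA-binding partners moved little: TEAD1 was at 237 and 215 CPM in WT and 195 and 209 CPM in knockout 3 (log2 fold change -0.16, SE 0.04), lost without WT replicate 1 (-0.09) or knockout 3 replicate 1 (-0.11), and TEAD4, the member that rose (log2 fold change 0.24, SE 0.09), lost its call in DESeq2 and without any of the 4 libraries (0.17 to 0.31).

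Endothelial marker genes, at low levels in this line, were lower in 7 of 10 tested and higher in 0, with a median of -1.46. PECAM1, the adhesion molecule CD31, was at 2.62 and 2.94 CPM in WT and 0.171 and 0 CPM in knockout 3. CDH5, VE-cadherin, was at 4.77 and 4.35 CPM in WT and 0.957 and 0.507 CPM in knockout 3. KDR, the VEGF receptor VEGFR2, was at 2.44 and 3.03 CPM in WT and 1.06 and 0.897 CPM in knockout 3. EGFL7, a secreted endothelial factor, was at 23.1 and 23.9 CPM in WT and 16.3 and 16.7 CPM in knockout 3. No knockout 3 library reached the WT level in these 4 genes, and the log2 fold changes were -4.9 (SE 0.46), -2.61 (SE 0.25), -1.47 (SE 0.26) and -0.51 (SE 0.08). The summed level of the 10 markers was 39.0 and 40.0 CPM in WT and 20.8 and 20.6 CPM in knockout 3.

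The other marker lists were read in the same libraries. Smooth muscle or pericyte markers were lower in 2 of 5 tested and higher in 0. At an unadjusted p under 0.05, 1 was higher, and DESeq2 called 1 higher. Only 1 of the 5 lay above 100 CPM, and it was not called in edgeR's test. Both fallers share exonic bases with other genes. ACTA2, smooth muscle actin, was at 19.9 and 21.2 CPM in WT and 5.26 and 3.84 CPM in knockout 3 (log2 fold change -2.16, SE 0.12). TAGLN was at 7.71 and 6.88 CPM in WT and 1.9 and 2.05 CPM in knockout 3 (log2 fold change -1.89, SE 0.18). MYH11, the defining myosin, had 0 to 2 counts and the sum was 6655 and 6684 CPM in WT and 6886 and 6961 CPM in knockout 3. Epithelial markers were lower in 2 of 5, KRT18 at -1.28 and KRT19 at -1.09 on the log2 scale, with sums of 14.9 and 13.3 against 11.2 and 9.55 CPM and CDH1 at 0 to 2 counts. Fibroblast markers were lower in 5 of 9 and higher in 3, with sums of 389.4 and 386.7 against 226.4 and 222.1 CPM. Glial markers were lower in 1 of 4 (ERBB3, log2 fold change -0.68, SE 0.13, sums 12.3 and 11.5 against 8.63 and 7.80 CPM), with FOXD3 at 0 and SOX10 at 0 to 4 counts, and immune markers in 1 of 3 (CD68, log2 fold change -0.53, SE 0.12, sums 11.9 and 13.2 against 7.76 and 9.48 CPM), with CD3E and PTPRC at 0. Adrenergic markers were higher in 4 of 8 and lower in 2, with sums of 4043 and 4174 against 4142 and 4204 CPM, and higher in 2 without knockout 3 replicate 2. The part of cells of such types in the falls of matrix and endothelial genes was not tested.

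Receptor tyrosine kinases gave 12 lower and 0 higher of 34 (1 at an unadjusted p under 0.05, 0 in DESeq2), with a median of -0.09. PDGFRA, a receptor for platelet-derived growth factor, was at 10.7 and 9.9 CPM in WT and 1.54 and 2.3 CPM in knockout 3 (log2 fold change -2.44, SE 0.17). PDGFRB was at 44 and 41.7 CPM in WT and 30.4 and 31 CPM in knockout 3 (log2 fold change -0.48, SE 0.06). AXL, the receptor of GAS6, was at 2.51 and 3.58 CPM in WT and 0.752 and 0.468 CPM in knockout 3 (log2 fold change -2.3, SE 0.29). FLT1, the VEGF receptor VEGFR1, was at 10.9 and 9.02 CPM in WT and 3.9 and 4.07 CPM in knockout 3 (log2 fold change -1.32, SE 0.14). Chemokines, cytokines and their receptors were lower in 16 of 57 tested (163 listed) and higher in 5, with a median of -0.25 (-0.16 with genes at 0 in a group set to their bound). The risers were 2 without WT replicate 2 or knockout 3 replicate 2 and 3 without either of the other 2 libraries. IL1B was at 4.11 and 3.32 CPM in WT and 0.478 and 0.799 CPM in knockout 3 (log2 fold change -2.56, SE 0.28). Its receptor IL1R1 was at 9.42 and 9.01 CPM in WT and 1.23 and 1.68 CPM in knockout 3 (log2 fold change -2.68, SE 0.18), so ligand and receptor both fell. LIFR, the receptor of leukaemia inhibitory factor, was at 87 and 84.4 CPM in WT and 52.5 and 51.8 CPM in knockout 3 (log2 fold change -0.72, SE 0.05).

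In the TGF-beta and BMP pathway 9 of 36 members fell and 5 rose, and the median was -0.05. The ligand TGFB2 was at 7.46 and 6.55 CPM in WT and 1.88 and 1.56 CPM in knockout 3 (log2 fold change -2.01, SE 0.19). The receptor TGFBR2 was at 6.18 and 7.06 CPM in WT and 3.28 and 2.52 CPM in knockout 3 (log2 fold change -1.18, SE 0.17). The co-receptor ENG was at 49.3 and 47.5 CPM in WT and 30.3 and 30.1 CPM in knockout 3 (log2 fold change -0.68, SE 0.06). The count of risers was 1 without knockout 3 replicate 1 and 2 without either WT library. Notch pathway members were lower in 8 of 22 and higher in 0, also at an unadjusted p and in DESeq2 (median -0.12), and lower in 5 without WT replicate 1 or either knockout 3 library. The receptor NOTCH1 was at 6.62 and 7.42 CPM in WT and 1.91 and 2.14 CPM in knockout 3 (log2 fold change -1.8, SE 0.18). The ligand JAG1 was at 2.15 and 3.1 CPM in WT and 0.854 and 0.468 CPM in knockout 3 (log2 fold change -1.96, SE 0.30). The co-activator MAML2 was at 26.7 and 22.6 CPM in WT and 13.6 and 14 CPM in knockout 3 (log2 fold change -0.84, SE 0.09). DLK1, a non-canonical Notch ligand and imprinted gene, was one of the most abundant genes to fall, at 1230 and 1254 CPM in WT and 1009 and 989 CPM in knockout 3 (log2 fold change -0.31, SE 0.03).

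WNT genes gave 4 higher and 6 lower of 41, where 8.9% of all genes were higher and 9.96% lower. DKK1, a secreted WNT inhibitor, rose from 67.1 and 66 CPM to 103 and 106 CPM (log2 fold change 0.65, SE 0.05). The receptor FZD7 rose too (log2 fold change 0.74, SE 0.09). The riser count of the WNT list was 2 without WT replicate 1 or knockout 3 replicate 1. Axon guidance genes were lower in 14 of 66 and higher in 6, the risers near the 8.9% of all genes. NRP1, a co-receptor of semaphorins and VEGF, was at 68.6 and 67.5 CPM in WT and 31.7 and 32.4 CPM in knockout 3 (log2 fold change -1.09, SE 0.06). SEMA5B, a semaphorin, was at 1.75 and 2.07 CPM in WT and 4.31 and 4.17 CPM in knockout 3 (log2 fold change 1.15, SE 0.20). The fallers numbered 8 without WT replicate 1 and the risers 3 without WT replicate 2.

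**Figure D3:**
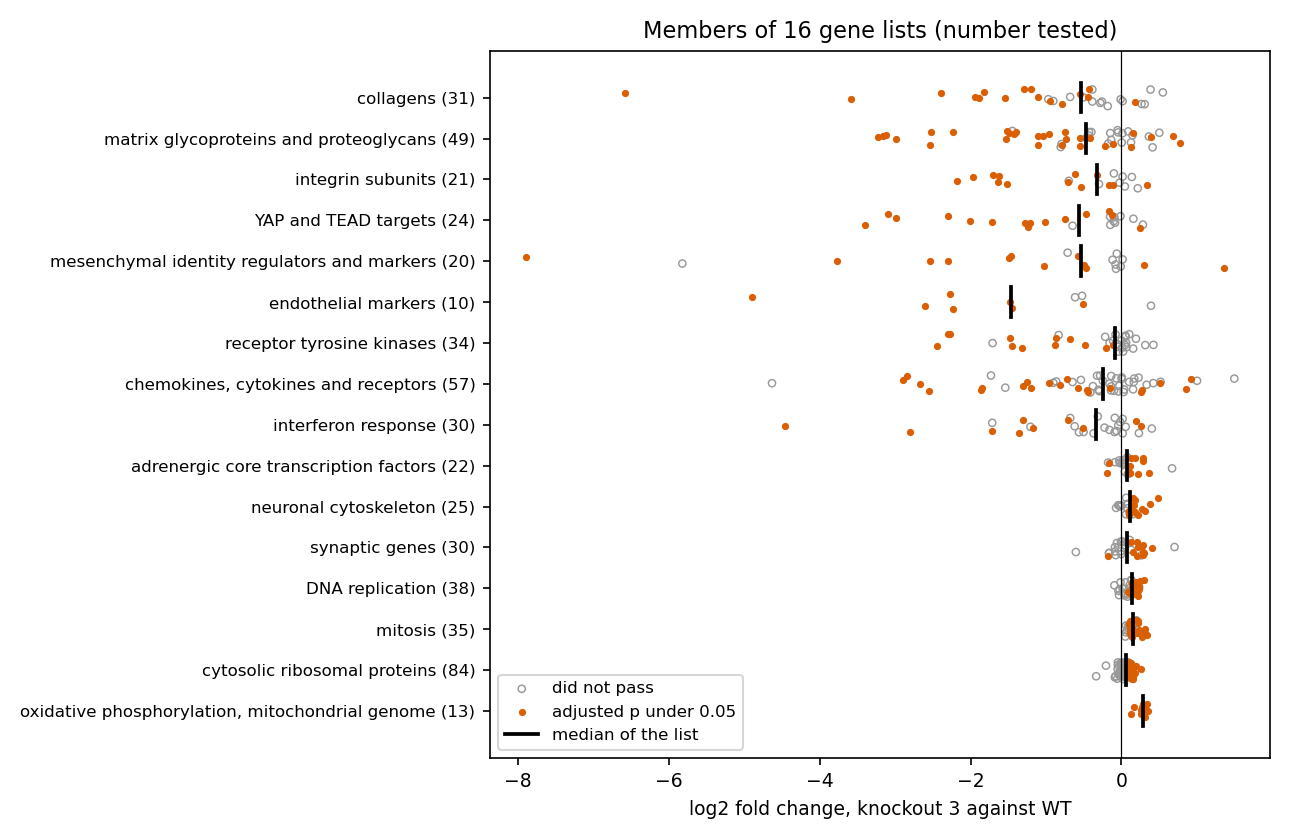
Log2 fold change of knockout 3 against WT (horizontal axis) for each tested member of 16 gene lists, filled where the adjusted p was under 0.05, with a black bar at the list's median. Collagen, matrix glycoprotein, integrin, YAP-linked and endothelial lists spread to the left with medians of -0.33 to -1.46. Neuronal, cell-cycle and ribosomal lists have medians of 0.06 to 0.15, though some members, such as SYT1, lie left of 0. Fitted values below -5 belong to genes at 0 in knockout 3.

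Adrenergic and neuronal genes moved little, and mostly upwards. Of 22 adrenergic transcription factors tested, 9 rose and 2 fell, with a median of 0.08. TFAP2B was at 312 and 308 CPM in WT and 352 and 368 CPM in knockout 3 (log2 fold change 0.22, SE 0.03). TLX2 was at 89.6 and 87.1 CPM in WT and 109 and 106 CPM in knockout 3 (log2 fold change 0.28, SE 0.05). GATA2 was at 611 and 619.7 CPM in WT and 671 and 662 CPM in knockout 3 (log2 fold change 0.11, SE 0.03). HAND1 was among those that fell (log2 fold change -0.17, SE 0.05). Above 100 CPM were 12 of these 22, of which 6 rose, and 18.6% of all genes at that level rose.

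Genes of catecholamine synthesis and transport went both ways, 4 higher and 3 lower of 14. SLC6A2, the noradrenaline transporter, was at 283 and 275 CPM in WT and 356 and 355 CPM in knockout 3 (log2 fold change 0.35, SE 0.03). GCH1, which makes the cofactor of TH, was at 35.5 and 38 CPM in WT and 51.1 and 54.7 CPM in knockout 3 (log2 fold change 0.52, SE 0.06). DBH, which converts dopamine to noradrenaline, was at 245 and 247 CPM in WT and 208 and 197 CPM in knockout 3 (log2 fold change -0.28, SE 0.04). SLC18A2, the vesicular transporter VMAT2, was at 5.75 and 5.85 CPM in WT and 2.72 and 3.02 CPM in knockout 3 (log2 fold change -1.02, SE 0.17). Among neuropeptides and granins 7 of 16 rose and 4 fell. VIP, vasoactive intestinal peptide, was at 135 and 144 CPM in WT and 65.2 and 66.6 CPM in knockout 3 (log2 fold change -1.08, SE 0.05). CHGA, chromogranin A, was at 915 and 983 CPM in WT and 768 and 833 CPM in knockout 3 (log2 fold change -0.25, SE 0.03). SCG2, secretogranin II, was at 815 and 831 CPM in WT and 955 and 982 CPM in knockout 3 (log2 fold change 0.23, SE 0.03). The riser count was 4 without WT replicate 2 and 3 without knockout 3 replicate 1.

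Neuronal cytoskeleton genes rose in 13 of 25 with 0 lower and a median of 0.11. Of the 21 above 100 CPM 12 rose, against 18.6% of all genes at that level. The neurofilament subunit NEFL was at 262 and 268 CPM in WT and 345 and 345 CPM in knockout 3 (log2 fold change 0.38, SE 0.03). Its partner NEFM was at 356 and 355 CPM in WT and 437 and 449 CPM in knockout 3 (log2 fold change 0.32, SE 0.03). The microtubule regulator DCLK1 was at 90.2 and 82.7 CPM in WT and 121 and 120.2 CPM in knockout 3 (log2 fold change 0.48, SE 0.05). Synaptic genes rose in 11 of 30, among them SNAP25, a vesicle fusion protein (log2 fold change 0.28, SE 0.04), SYP, synaptophysin (log2 fold change 0.27, SE 0.04), and DLG2 (log2 fold change 0.4, SE 0.07). The calcium sensor SYT1 was the one that fell, from 225 and 223 CPM to 196 and 199.7 CPM (log2 fold change -0.18, SE 0.04). The called changes in these 2 lists stayed under 1.5-fold. At an unadjusted p under 0.05, 1 cytoskeleton gene was lower, and DESeq2 called 0 lower.

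Cell-cycle genes rose by small amounts. Of 35 mitotic genes 24 rose and 0 fell, with a median of 0.15, and of 38 replication genes 20 rose and 0 fell, with a median of 0.14. For both, the fallers were also 0 at an unadjusted p under 0.05 and in DESeq2. Of the 29 mitotic genes above 100 CPM 23 rose, and of the 19 replication genes 11 rose, against 18.6% of all genes at that level. FOXM1, the transcription factor of mitotic genes, was at 194 and 188 CPM in WT and 243 and 234 CPM in knockout 3 (log2 fold change 0.32, SE 0.04). CCNB1, cyclin B1, was at 222 and 237 CPM in WT and 291 and 274 CPM in knockout 3 (log2 fold change 0.3, SE 0.04). CDC20, an activator of the anaphase-promoting complex, was at 142 and 144 CPM in WT and 182 and 172 CPM in knockout 3 (log2 fold change 0.31, SE 0.04). Both knockout 3 libraries lay above both WT libraries in each. LIG1, a DNA ligase, was at 71.9 and 77.6 CPM in WT and 91.9 and 91.5 CPM in knockout 3 (log2 fold change 0.29, SE 0.05). PCNA, the sliding clamp, was at 268 and 274 CPM in WT and 314 and 321 CPM in knockout 3 (log2 fold change 0.23, SE 0.03). Of 21 G1 cyclins, kinases and inhibitors 6 rose and 3 fell. CDK6 was at 605 and 556 CPM in WT and 489 and 516 CPM in knockout 3 (log2 fold change -0.21, SE 0.03). CDKN2C, the inhibitor p18, was at 75 and 74.5 CPM in WT and 91.7 and 92.3 CPM in knockout 3 (log2 fold change 0.3, SE 0.05), and only 1 of the 3 fallers passed without WT replicate 1 or knockout 3 replicate 1.

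All 13 mRNAs of the mitochondrial genome rose in knockout 3, with a median of 0.28. MT-CO1, a subunit of complex IV, was at 5465 and 5504 CPM in WT and 6788 and 6761 CPM in knockout 3 (log2 fold change 0.3, SE 0.03). MT-ND4, a subunit of complex I, was at 3648 and 3739 CPM in WT and 4662 and 4765 CPM in knockout 3 (log2 fold change 0.35, SE 0.03). Mitochondrial genes took 2.6% and 2.65% of all counts in WT and 3.11% and 3.17% in knockout 3. In knockouts 1 and 2, compared with the same WT libraries, all 13 fell, against 9.72% of all genes lower and 7.79% higher in knockout 1 and 14.3% lower and 12% higher in knockout 2. They had median log2 fold changes of -0.40 and -0.58, and the shares were 2.05% and 2.03% in knockout 1 and 1.71% in both libraries of knockout 2. The direct test of knockout 3 against the mean of the other knockouts called all 13 higher (for MT-CO1 a difference of 0.79, SE 0.02). What moved these shares was not tested.

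**Figure D4:**
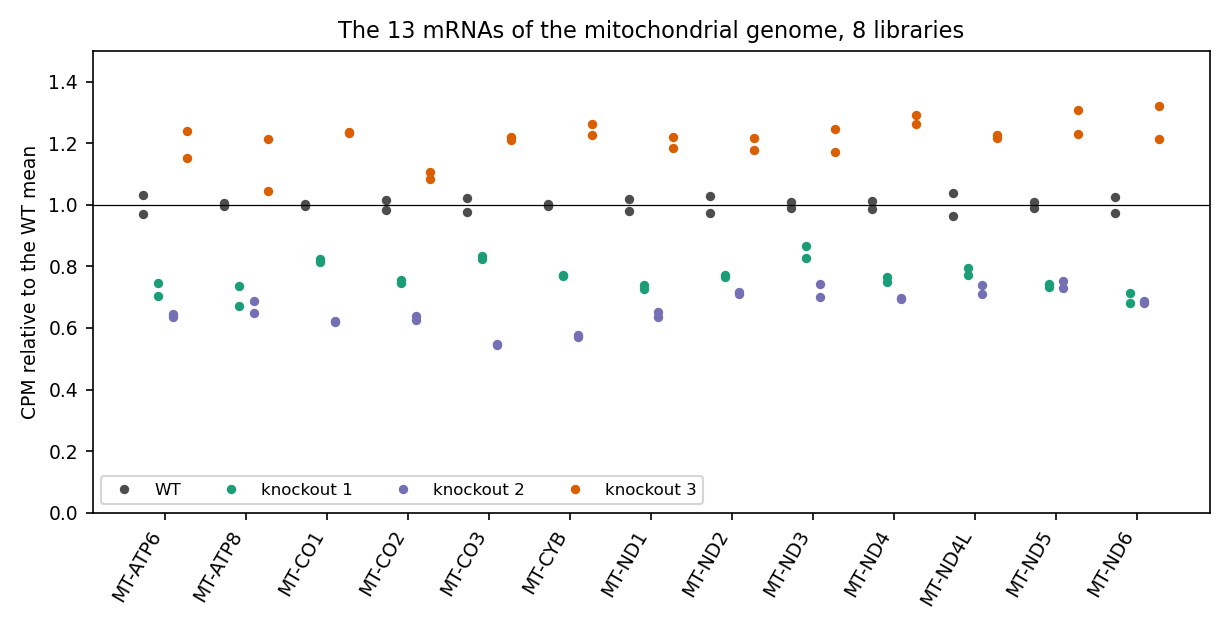
CPM of the 13 mitochondrial mRNAs divided by the gene's WT mean (vertical axis from 0) in 8 libraries, 2 points per group and gene. Knockout 3 lies at 1.05 to 1.32 times the WT mean, WT at 0.963 to 1.04, knockout 1 at 0.67 to 0.868 and knockout 2 at 0.544 to 0.754.

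Nuclear genes of oxidative phosphorylation rose in 13 of 76 with 0 lower and a median of 0.06, and in 6 without WT replicate 1. Above 100 CPM were 29 of these genes, of which 6 rose, close to the 18.6% of all genes at that level. NDUFB9, of complex I, was at 104 and 105 CPM in WT and 125 and 126 CPM in knockout 3 (log2 fold change 0.26, SE 0.04). CYC1, cytochrome c1 of complex III, was at 113 and 107 CPM in WT and 136 and 127 CPM in knockout 3 (log2 fold change 0.26, SE 0.04). Cytosolic ribosomal protein genes rose in 29 of 84 with 0 lower and a median of 0.06. RPS12 was at 474 and 468 CPM in WT and 538 and 530.2 CPM in knockout 3 (log2 fold change 0.18, SE 0.03) and RPL8 rose by as little (log2 fold change 0.15, SE 0.03). The count rested on single libraries, 9 without WT replicate 1 and 15 without knockout 3 replicate 1. Above 100 CPM were 75 of the 84 ribosomal protein genes, of which 28 rose, against 18.6% of all genes at that level. Ribosomal protein mRNAs share reads with processed pseudogenes, which the annotation of protein-coding genes left out. Ribosome biogenesis factors were lower in 8 of 36 and higher in 1, and lower in 4 without WT replicate 1 or knockout 3 replicate 1 and 5 without either of the other 2 libraries. UTP20, a small-subunit processome component, was at 187 and 176 CPM in WT and 155 and 161 CPM in knockout 3 (log2 fold change -0.2, SE 0.04).

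The enzymes that write, erase and read DNA methylation showed 5 higher and 3 lower of 23. DNMT1, the maintenance methyltransferase, had a log2 fold change of 0.08 (SE 0.03), DNMT3A one of -0.01 (SE 0.04) and DNMT3B one of 0.01 (SE 0.09). None of these 3 passed in edgeR's test, with adjusted p-values of 0.0649, 0.88 and 0.945, though DESeq2 called DNMT1 higher (adjusted p of 0.0261). IDH2, which makes the 2-oxoglutarate that TET enzymes use, was at 179.9 and 189 CPM in WT and 214 and 209.97 CPM in knockout 3 (log2 fold change 0.2, SE 0.04). The riser count of this list was 2 without either WT library and 3 without either knockout 3 library, and TET1 was the only faller to pass without WT replicate 1.

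Polycomb genes, which write and bind repressive histone marks, changed little. In complex 2, 1 of 12 rose and 2 fell, and EZH2, its methyltransferase, was at 98.7 and 103 CPM in WT and 103 and 102 CPM in knockout 3 (log2 fold change 0.03, SE 0.04) and not called. PHF19, an accessory subunit, was at 84.8 and 85.4 CPM in WT and 105 and 98.6 CPM in knockout 3 (log2 fold change 0.26, SE 0.05), and the fallers were JARID2 (log2 fold change -0.15, SE 0.05), lost without WT replicate 2 (-0.129) or knockout 3 replicate 1 (-0.131), and LCOR (log2 fold change -0.13, SE 0.05), whose adjusted p of 0.0488 in edgeR's quasi-likelihood test crossed the threshold in most alternatives, DESeq2 included. In complex 1, 3 of 24 rose and 0 fell, with PCGF5 at 13.4 and 14.3 CPM in WT and 17.8 and 18.4 CPM in knockout 3 (log2 fold change 0.38, SE 0.09), and 1 of the 3 passed without WT replicate 1. HOX genes were tested for 15 of 39, and the 2 that rose were 0 without knockout 3 replicate 1. Developmental transcription factors fell in 5 of 33 tested and rose in 1. DLX1, a homeobox factor, was at 1.31 and 1.68 CPM in WT and 0.273 and 0.39 CPM in knockout 3 (log2 fold change -2.18, SE 0.40). WT1, the Wilms tumour factor, was at 4.87 and 5.08 CPM in WT and 2.8 and 2.81 CPM in knockout 3 (log2 fold change -0.83, SE 0.18). SOX9 was at 47.8 and 41.1 CPM in WT and 31.1 and 33.8 CPM in knockout 3 (log2 fold change -0.46, SE 0.06). TBX3, the riser, was at 269.6 and 274 CPM in WT and 304 and 316 CPM in knockout 3 (log2 fold change 0.19, SE 0.03). Imprinted genes fell in 5 of 24, led by MEST, with IGF2, a fetal growth factor, at 124 and 108 CPM in WT and 76.2 and 81.6 CPM in knockout 3 (log2 fold change -0.56, SE 0.05), and rose in 2. Without knockout 3 replicate 1 the fallers were 3 and without WT replicate 1 the risers were 0.

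Oxygen-sensing genes include other dioxygenases of the same cofactors. EPAS1, which encodes HIF-2 alpha, was at 21.9 and 19.9 CPM in WT and 4.51 and 4.52 CPM in knockout 3 (log2 fold change -2.21, SE 0.11). HIF1A was at 846 and 825 CPM in WT and 702 and 730.1 CPM in knockout 3 (log2 fold change -0.22, SE 0.03), while the other 8 of the 10 subunits and sensors did not pass. Of 18 HIF targets outside glycolysis 5 fell and 1 rose, AK4 (log2 fold change 0.39, SE 0.08). Without WT replicate 2 or knockout 3 replicate 1 the fallers were 2, and without WT replicate 1 or knockout 3 replicate 2 they were 3. Of 23 glycolytic genes 5 rose and 3 fell. SLC2A3, a glucose transporter, was at 18.6 and 19.96 CPM in WT and 12.5 and 9.71 CPM in knockout 3 (log2 fold change -0.79, SE 0.10). ENO2, neuronal enolase, was at 332 and 341 CPM in WT and 397 and 384 CPM in knockout 3 (log2 fold change 0.22, SE 0.03), and the risers were 1 without WT replicate 1 and 3 without knockout 3 replicate 1.

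Interferon response genes were lower in 8 of 30 tested and higher in 2, with a median of -0.34, and higher in 1 without WT replicate 2 or knockout 3 replicate 1. IFITM2, a membrane protein that restricts viral entry, was at 2.73 and 2.96 CPM in WT and 0.171 and 0.078 CPM in knockout 3 (log2 fold change -4.46, SE 0.42). IFITM3 was at 2.4 and 2.6 CPM in WT and 0.444 and 0.253 CPM in knockout 3 (log2 fold change -2.81, SE 0.35), and the pair are close paralogues whose reads can be shared. PARP9 was at 17.9 and 16.9 CPM in WT and 10.4 and 11 CPM in knockout 3 (log2 fold change -0.71, SE 0.10). Its partner DTX3L was at 22.6 and 23.6 CPM in WT and 15.4 and 17 CPM in knockout 3 (log2 fold change -0.51, SE 0.08). Genes of MHC class I presentation were lower in 6 of 15 and higher in 0, with a median of -0.48. NLRC5, the transactivator of these genes, was at 9.17 and 9.04 CPM in WT and 5.16 and 4.68 CPM in knockout 3 (log2 fold change -0.88, SE 0.14). PSMB8, an immunoproteasome subunit, was at 3.2 and 2.82 CPM in WT and 0.786 and 1.4 CPM in knockout 3 (log2 fold change -1.48, SE 0.25). The groups did not overlap in any of those named.

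MYC, the paralogue of MYCN, was at 3.82 and 3.3 CPM in WT and 0.786 and 1.25 CPM in knockout 3 (log2 fold change -1.83, SE 0.25). In the MYC-MAX network MXD3 rose (log2 fold change 0.52, SE 0.09), MYC and MGA fell, and MGA lost its call without WT replicate 1 or knockout 3 replicate 1 (-0.12 in each). Of 26 immediate early genes 4 rose and 3 fell, with DUSP6, a phosphatase of ERK, at 176 and 177 CPM in WT and 214 and 210.5 CPM in knockout 3 (log2 fold change 0.27, SE 0.04), and the risers were 2 without either WT library or knockout 3 replicate 1. Stress genes of the integrated stress and unfolded protein response fell in 9 of 28 and rose in 2, CHAC1 from 7.18 and 8.1 CPM to 3.79 and 4.68 CPM (log2 fold change -0.86, SE 0.15) and the endoplasmic chaperone HSP90B1 from 832 and 876 CPM to 733 and 764 CPM (log2 fold change -0.19, SE 0.03), and the fallers were 5 without WT replicate 1 or knockout 3 replicate 1. NRF2 antioxidant genes fell in 5 of 20 and rose in 1, with 2 or 3 fallers when any 1 of the 4 libraries was left out. Sterol synthesis genes rose in 3 and fell in 2 of 23, and fatty acid synthesis genes rose in 1 and fell in 2 of 13. Heat shock proteins rose in 3 and fell in 2 of 17, and iron genes rose in 2 and fell in 3 of 11. Over all genes 8.9% rose and 9.96% fell. Above 100 CPM lay 13 of the sterol, 10 of the fatty acid, 10 of the heat shock and 5 of the iron genes. At that level 18.6% of all genes rose and 14.2% fell. Without knockout 3 replicate 1 the sterol risers were 1, the fatty acid risers 0, the heat shock fallers 0 and the iron risers 1, and without knockout 3 replicate 2 the heat shock risers were 1. Metallothionein and zinc genes gave 0 calls of 11 in edgeR's test, with 2 lower at an unadjusted p under 0.05 and 1 lower in DESeq2.

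Voltage-gated channels rose in 6 and fell in 5 of 56, near the 8.9% of all genes that rose and 9.96% that fell, with KCNH2, the hERG potassium channel, at 249 and 249 CPM in WT and 296 and 287 CPM in knockout 3 (log2 fold change 0.23, SE 0.03), and the risers were 3 without WT replicate 2 or knockout 3 replicate 2, the fallers 3 in DESeq2 or without knockout 3 replicate 1. GABA and glutamate receptors rose in 4 and fell in 3 of 28. GRIK3, a kainate receptor subunit, was at 101 and 92.1 CPM in WT and 64.5 and 66.3 CPM in knockout 3 (log2 fold change -0.56, SE 0.05). GRIN1, the obligate NMDA receptor subunit, was at 58.6 and 59.5 CPM in WT and 74.2 and 72 CPM in knockout 3 (log2 fold change 0.31, SE 0.05), and the risers were 2 without knockout 3 replicate 1. Clustered protocadherins gave 1 faller of 50 and 0 risers, and germline genes 1 of each among 9 tested of 82 listed, all 3 lost without WT replicate 1.

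Knockout 3 was set beside the other knockouts by direct tests, since each comparison with WT uses the same WT libraries. Against the mean of knockouts 1 and 2, 3294 genes (23.4%) were called, 1766 (12.6%) higher and 1528 (10.9%) lower, and 1690 without knockout 3 replicate 1. At least 2-fold differences numbered 175 (1.24%), 60 (0.427%) higher and 115 (0.818%) lower. Against knockouts taken singly the counts were unequal: against knockout 1 alone 620 genes (4.41%) were higher and 547 (3.89%) lower, against knockout 2 alone 2439 (17.3%) higher and 2363 (16.8%) lower. Of the sterol synthesis genes, 19 of 23 were higher than the mean of the others, 3 higher than knockout 1 and 20 higher than knockout 2. Ribosomal protein genes were higher in 63 of 84 against the mean, 32 against knockout 1 and 70 against knockout 2, and mitotic genes in 18, 18 and 12 of 35.

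The genes furthest below both other knockouts included FLT1, IL33 and MMP1. FLT1 was at 3.9 and 4.07 CPM in knockout 3, 7.59 and 7.45 CPM in knockout 1, 23.6 and 24.3 CPM in knockout 2 and 10.9 and 9.02 CPM in WT. IL33, a nuclear cytokine, was at 4.51 and 4.52 CPM in knockout 3, 9.51 and 7.13 CPM in knockout 1, 27.8 and 26.2 CPM in knockout 2 and 9.51 and 8.04 CPM in WT. MMP1 was at 17.9 and 18.2 CPM in knockout 3, 28.4 and 26.8 CPM in knockout 1 and 77.7 and 81.2 CPM in knockout 2. Knockout 3 was the lowest group in each, and knockout 2 was above WT for FLT1 and IL33. Differences from the mean of the others were -1.75 (SE 0.12), -1.73 (SE 0.11) and -1.38 (SE 0.06) on the log2 scale. SAMD11 (-1.7) and LRRC17 (-1.37) were also among them, and both share exonic bases with neighbouring genes.

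Above both other knockouts were FOS, GAD1, MGLL, POPDC2, FEZ1 and IL17RD, with differences of 1.2 to 1.4. FOS, an immediate early AP-1 subunit, was at 20.9 and 22.1 CPM in knockout 3, 19.1 and 19.6 CPM in knockout 1, 3.34 and 3.47 CPM in knockout 2 and 23 and 23.6 CPM in WT, and it was not called against WT (log2 fold change -0.12, SE 0.08). GAD1, which makes GABA from glutamate, was at 21.1 and 21.4 CPM in knockout 3, 12.4 and 12.2 CPM in knockout 1, 5.06 and 6.01 CPM in knockout 2 and 14.9 and 12.9 CPM in WT. FEZ1 was at 5.96 and 5.15 CPM in knockout 3, 3.52 and 2.7 CPM in knockout 1 and 1.54 and 2.03 CPM in knockout 2. GAD1 and FEZ1 were higher in knockout 3 than in any library of the other 3 groups. The rise of IL17RD against WT (log2 fold change 0.23, SE 0.08) was lost in DESeq2 and without any of the 4 libraries (0.20 to 0.26).

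**Figure D5:**
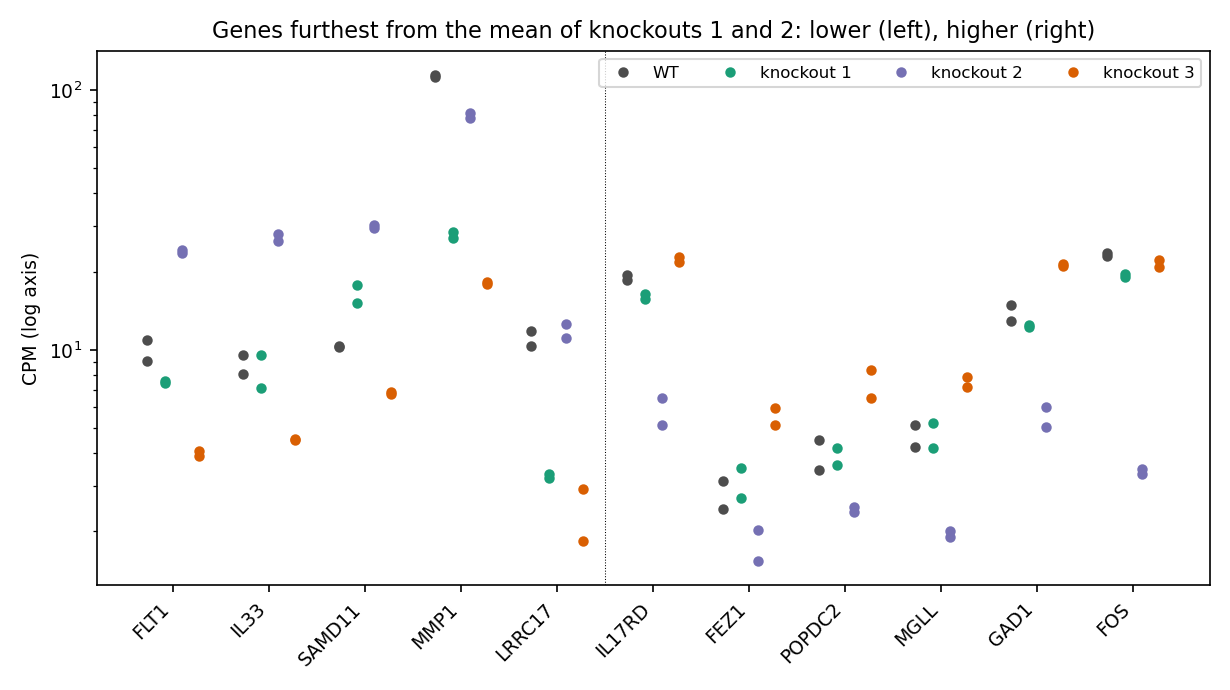
CPM (vertical log axis) in the 2 libraries of each of 4 groups for 5 of the genes furthest below (left of the dotted line) and the 6 furthest above (right) the mean of knockouts 1 and 2. Orange points of knockout 3 are outside the range of the green and purple points in every gene, a condition of their choice, and for FLT1 they lie at 3.9 and 4.07 CPM against 23.6 and 24.3 CPM in knockout 2.

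For the 12 largest falls, log2 fold changes in knockouts 1 and 2 against the same WT libraries were -3.38 and -2.49 for COL3A1, -2.98 and -3.0 for POSTN, -3.58 and -3.44 for MEST and -2.91 and -1.35 for CCN2. Knockout 3 was lower than the mean of the others in the direct test for COL3A1 (-0.66), CRIM1 (-0.93), ANXA1 (-1.21), TM4SF1 (-1.11), CCDC80 (-0.46), TFPI (-0.79) and CCN2 (-0.96), higher for MEST (0.56), and not called for PTX3 (0.26), POSTN (-0.17), ANKRD1 (-0.4) or CCL2 (-0.36). Among the rises, RORB, LRRC55 and RD3 had values of 0.79, 1.11 and 0.92 in knockout 1 and 0.09, -0.06 and 0.22 in knockout 2. MYCN was -0.72 in knockout 2 and -0.02 in knockout 1.

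Position and promoter sequence were described without a test. Chromosome medians lay between -0.058 (chromosome 14) and 0.057 (chromosome 19) apart from the mitochondrial genome at 0.281 and chromosome Y at -0.288, where 6 of 11 genes fell and 0 rose. Among 292 bins of 10 Mb the lowest median was -0.158 (chromosome 11, 100 to 110 Mb) and the highest on a nuclear chromosome 0.148 (chromosome 19, 50 to 60 Mb, 175 genes). RefSeq promoter windows matched 80.8% of genes tested and 80.9% of those that fell. A ratio of observed to expected CpG of at least 0.6 was found in 75.6% of the windows of genes that fell and 80.7% of all, and among genes of at least 10 CPM in 84.3% and 88.4%. GGAATG was in 12.4% of the windows of genes that fell and 10.7% of all, and TGANTCA in 6.0% and 4.5%. Among genes of at least 10 CPM the shares were 10.7% and 9.8% for GGAATG and 3.6% and 3.4% for TGANTCA. For genes that rose, and for those at least 2-fold lower, the check is held void for want of coverage, as windows matched 79.0% and 75.6% of them. The same holds under 10 CPM, where windows matched 77.5% of genes that fell and 76.3% of all. Differences at that level are therefore not described. Without shares for genes that rose, none of the shares above can be called particular to genes that fell.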

How the data were processed

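Polyadenylated RNA of SK-N-BE2 cells was sequenced, and the 2 WT and 2 knockout 3 libraries of the second batch were compared, with knockouts 1 and 2 (2 libraries each) in the same fit. The 6 libraries of the first batch were not used here. The authors deposited raw counts per gene, made with featureCounts 2.0.5 on GENCODE 33 protein-coding genes and GRCh38 with no strand option, per the file headers; STAR 2.6.1d, Trimmomatic 0.36 and Subread 1.5.3 are named in the submitters' processing notes. Counts were mostly reads rather than fragments. Groups were taken from the sample titles.

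Genes were filtered by filterByExpr and 14061 of 19923 were tested with edgeR 4.0.16 (quasi-likelihood, TMM, 1 coefficient per group, R 4.3.3), with Benjamini-Hochberg adjustment over all genes and a threshold of 0.05. On simulated counts for 13812 genes the fit recovered 100% of 2-fold and 90% of 1.4-fold changes with 11 false calls. The 200 changed genes were drawn from those above a minimum expected count, and every gene was given the same dispersion. Recovery in genes of the lowest level was therefore not tested. Simulated counts were also drawn singly, without fragments that count as 2, so the number of false calls may differ in these libraries. Replicates of WT and knockout 3 differed by 5.12 and 5.52 times the variance that counting gives, and by 2.56 and 2.76 times with counts halved. Genes named in the text were the 12 largest falls and rises among called genes of at least 5 CPM whose groups did not overlap, the 6 furthest each way from the other knockouts, the most abundant genes, and list members, and a few genes that this rule names are not reported here. The genes and lists were chosen with earlier results of these data known. DESeq2 1.42.0, other scalings and filters, halved counts, a replicate block and each library left out were tried as alternatives, and genes without overlapping exons and without mitochondrial genes were added after the data were seen.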

Additional observations from a re-analysis of the deposited data

Results flagged for a closer look

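In 1 comparison and 14 genes knockout 3 differed from the other knockouts in a direct test. The comparison itself called 3294 genes against the mean of knockouts 1 and 2. In each of the 14 genes the log2 fold changes of knockout 3 and knockout 2 against WT also had opposite signs.

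Log2 differences of knockout 3 from the mean of the others were 1.25 for FEZ1, 1.28 for POPDC2, 0.75 for XK, 1.36 for GAD1, 1.30 for MGLL and 1.20 for IL17RD. They were -1.75 for FLT1, -1.73 for IL33 and -1.70 for SAMD11. Among mitochondrial mRNAs they were 0.79 for MT-CO1, 0.85 for MT-CO3, 0.81 for MT-ND4 and 0.67 for MT-CO2. TET3, a paralogue of the targeted gene, differed by -0.22, with log2 fold changes against WT of -0.16 in knockout 3, -0.11 in knockout 1 and 0.22 in knockout 2. Groups of 2 libraries are too small for a check of single libraries far from the rest.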

How the results depend on the processing

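Of 304 gene values, none changed direction where the main run or the alternative called the gene. A change of sign with no call in either run was not counted. Of the 56 lists that follow, 2 hold the same endothelial markers, and a list that moved to a tie was not counted as turned. The balance of higher to lower members turned in 8 of 56 lists without 1 library: 5 and 3 became 1 and 2 for glycolysis (WT replicate 1) and 2 and 3 for DNA methylation (WT replicate 2), 6 and 5 became 3 and 4 for voltage-gated channels (WT replicate 2) or 3 and 6 (knockout 3 replicate 2), and 4 and 3 became 3 and 4 for GABA and glutamate receptors (either of these 2). It also turned for Polycomb repressive complex 2 (1 and 0 without knockout 3 replicate 1), neuropeptides and granins (3 and 4, the same library), heat shock proteins (1 and 3 without knockout 3 replicate 2) and immediate early genes (2 and 3 without WT replicate 1). Leaving out 1 library at a time gave 1566 to 2615 genes called against WT, 275 to 349 at least 2-fold, and 1690 to 3324 against the mean of the other knockouts. The lowest counts came without knockout 3 replicate 1 (1566, 275 and 1690), and WT replicate 1 left out gave 1616 against WT. TET2 ranged from 0.013 to 0.156 and was called in none. DESeq2 gave 2250, 281 and 2874, and the other scalings, filters, halved counts and fits 2421 to 2660 against WT. Limited to genes without overlapping exons the count was 2109. Of the gene values, 237 kept their side of the threshold in all alternatives and 67 changed it in at least 1.

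The replicate numbers did not pair the libraries: deviations of same-numbered WT and knockout 3 libraries correlated at -0.09, and the 6 pairs of groups ranged from -0.135 to 0.106. With replicate number as a block the counts were 2458, 332 and 3082, and TET2 was at 0.08. With 2 libraries a group, small changes rest on single libraries, and at low counts a change under 2-fold was often not detectable.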

Other observations

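Several genes of low count in WT were close to silent in knockout 3. These were chosen after their values were seen. Genes with 0 to 2 counts in knockout 3 cannot have passed the filter on counts through its libraries. Where WT alone kept them, their difference was partly set by the filter. ABCA8, a lipid transporter, had 91 counts over the WT libraries and 0 over those of knockout 3, at least 15.0-fold lower with a floor of 6 counts (3 fragments) over the group. VCAM1, an adhesion molecule, had 38 and 0 counts (at least 6.26-fold lower), and DAAM2, a formin-related WNT regulator, 45 and 0 (at least 7.42-fold lower). CD109, a TGF-beta co-receptor, had 72 and 2 counts, 35.6-fold lower, with exact 95% bounds, on counts halved to fragments, of 5.99 and 1440 that cover counting error only. IFI16, a DNA sensor, was far more abundant, at 103 and 102 CPM in WT and 39.8 and 41.7 CPM in knockout 3 (log2 fold change -1.34, SE 0.05).

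Genes at least 2-fold higher were low throughout. HTR4, a serotonin receptor, was at 0.418 and 0.428 CPM in WT and 1.23 and 1.58 CPM in knockout 3 (log2 fold change 1.71, SE 0.38), and kept its call in every alternative run. SSTR1, a somatostatin receptor, was at 0.109 and 0.232 CPM in WT and 0.991 and 0.624 CPM in knockout 3 (log2 fold change 2.24, SE 0.54) and lost it without knockout 3 replicate 1 (1.855). NTS, the precursor of neurotensin, was at 0.182 and 0.143 CPM in WT and 0.547 and 0.487 CPM in knockout 3 (log2 fold change 1.67, SE 0.61) and lost it without any of the 4 libraries (log2 fold change 1.5 to 1.85).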
